A study of Mus musculus with 2 samples.

Results

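The Hoxd cluster and Evx2 were described here by the Arid1b peaks that lie in or within 10 kb of the 10 genes Evx2, Hoxd13, Hoxd12, Hoxd11, Hoxd10, Hoxd9, Hoxd8, Hoxd4, Hoxd3 and Hoxd1 on mouse chromosome 2 (mm10). Of 8318 peaks in all, 19 met this rule, and each was assigned to the nearest of the 10 genes. Peak strength played no part in the choice. Chromatin immunoprecipitation with sequencing (ChIP-seq) had been done with an antibody to Arid1b, the ARID-domain paralogue of Arid1a in SWI/SNF chromatin remodelling complexes of the BAF type, and set against input chromatin without antibody. There was 1 library of each, so no value below has a replicate check, and all describe these 2 libraries. Both came from wild-type mice of the strain C57BL/6, as primary cultures of dental mesenchyme cells. The cells were from the root end of the lower first molar at postnatal day 3.5 to 7.5 and had been kept in medium with 10% serum, and the number of animals pooled was not stated. Arid1a and Gli1-CreER;Arid1a fl/fl knockout mice appear in the title and design of the study, but the labels of both libraries give an Arid1b antibody or none, and no knockout. As a check of the labelled cell type, a peak reached within 1 kb of a gene end at 8 of 10 dental mesenchyme genes (Dlx2, Lhx8, Dlx1 and Barx1 the strongest; Lhx6 and Prrx1 without) and at 1 of 5 dental epithelium genes, against 22.2% of all protein-coding genes. The lists were chosen with earlier results of these data known, and the peaks are positions of Arid1b signal and not RNA levels.

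Hox genes encode homeodomain transcription factors and lie in clusters whose gene order follows the order of their expression along the body axis. In the Hoxd cluster the 5′ genes, from Hoxd13 to Hoxd9, are best known for patterning the limbs, digits, genitalia and posterior trunk, and the 3′ genes, from Hoxd4 to Hoxd1, for the hindbrain, neck and sensory neurons. Evx2, a homeobox gene related to Drosophila even-skipped, lies beyond Hoxd13, is transcribed in the opposite direction and shares limb enhancers with it. The mesenchyme of the mandibular arch, from which the lower molars form, is known as a territory that develops without Hox gene expression, and silent Hox clusters are held by Polycomb complexes, which SWI/SNF complexes oppose.

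Arid1b signal lay mainly in the 5′ part of the cluster. Of the 19 peaks, 9 were assigned to Evx2, 3 to Hoxd13, 2 to Hoxd11, 2 to Hoxd3, and 1 each to Hoxd10, Hoxd9 and Hoxd8. Hoxd12, Hoxd4 and Hoxd1 were the nearest gene of none. In the 57.2 kb from the low end of the interval to the end of Hoxd9 there were 16 summits, and the peaks covered 13.3% of the bases. In the remaining 74.9 kb, from Hoxd9 to 10 kb beyond Hoxd1, there were 3 summits and 2.44% was covered. The densest stretches were Evx2 with 1 kb on either side, where 31.7% of the bases were covered, and Hoxd13 with 1 kb on either side, with 32.5%.

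**Figure D1:**
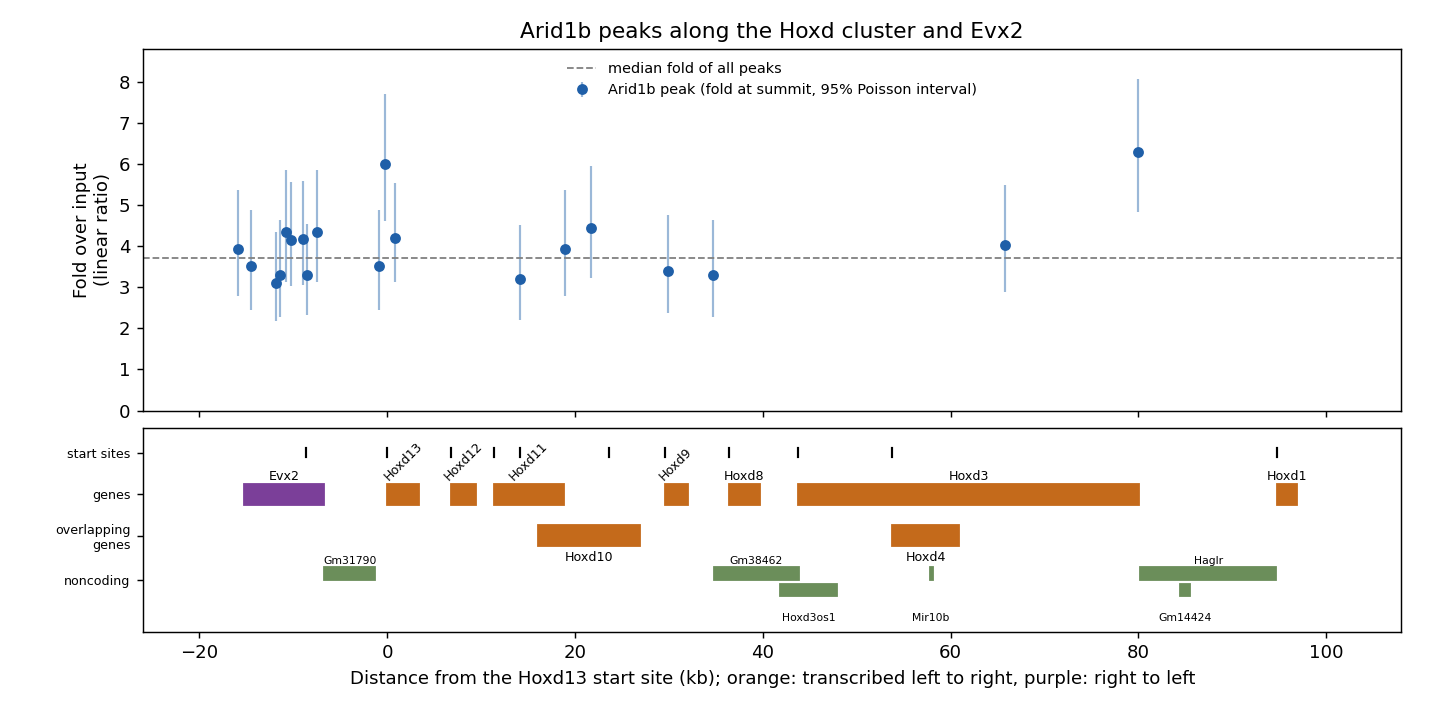
Fold enrichment of Arid1b over input at the summit of each of the 19 peaks (upper panel, linear ratio, bars are exact Poisson 95% intervals) by distance from the Hoxd13 start site in kb, with the genes below. The peaks crowd over Evx2 and Hoxd13 on the left, none lies over Hoxd12, Hoxd8, Hoxd4 or Hoxd1, and the 2 tallest are at Hoxd13 and at the far end of Hoxd3.

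Windows at the start sites are shown first as sequence, because 3 of them are overlapped by a peak and they differ widely in base composition. RefSeq (GRCm38.p6, the assembly that mm10 names) gives 11 start sites for the 10 genes, of which Hoxd11 has an outer and an inner one. Each window runs from 250 bases before to 50 bases after the start, 5′ to 3′ on the strand of the gene, with the bases covered by an Arid1b peak in capitals. The Hoxd13 window (chr2:74667975-74668274, plus strand), the Evx2 window (chr2:74659508-74659807, minus strand) and the inner Hoxd11 window (chr2:74682073-74682372, plus strand) are the 3 overlapped ones. Hoxd1 (chr2:74762730-74763029, plus strand) and Hoxd4 (chr2:74721728-74722027, plus strand) are shown for contrast, as the most GC-rich and the most AT-rich of the windows without a peak.
Hoxd13: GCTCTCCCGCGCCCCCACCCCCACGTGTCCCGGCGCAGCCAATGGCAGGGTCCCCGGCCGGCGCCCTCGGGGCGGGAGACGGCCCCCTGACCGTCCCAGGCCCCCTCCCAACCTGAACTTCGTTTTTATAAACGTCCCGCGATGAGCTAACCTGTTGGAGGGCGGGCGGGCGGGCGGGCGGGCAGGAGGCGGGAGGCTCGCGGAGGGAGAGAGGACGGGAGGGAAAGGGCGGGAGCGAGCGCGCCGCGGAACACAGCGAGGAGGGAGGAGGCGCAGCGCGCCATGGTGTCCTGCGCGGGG
Evx2: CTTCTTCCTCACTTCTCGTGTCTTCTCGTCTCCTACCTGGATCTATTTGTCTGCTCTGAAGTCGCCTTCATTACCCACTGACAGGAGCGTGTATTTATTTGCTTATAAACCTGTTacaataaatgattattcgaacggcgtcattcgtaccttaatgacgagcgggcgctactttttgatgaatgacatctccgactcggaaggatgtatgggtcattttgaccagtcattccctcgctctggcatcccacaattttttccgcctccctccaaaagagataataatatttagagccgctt
Hoxd11 inner start: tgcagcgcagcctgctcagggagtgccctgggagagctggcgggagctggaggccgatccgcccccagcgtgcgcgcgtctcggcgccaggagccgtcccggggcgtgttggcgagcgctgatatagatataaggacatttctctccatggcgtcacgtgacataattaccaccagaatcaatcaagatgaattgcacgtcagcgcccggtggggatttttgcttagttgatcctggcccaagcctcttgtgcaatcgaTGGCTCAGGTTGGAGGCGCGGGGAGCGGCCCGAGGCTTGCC
Hoxd1: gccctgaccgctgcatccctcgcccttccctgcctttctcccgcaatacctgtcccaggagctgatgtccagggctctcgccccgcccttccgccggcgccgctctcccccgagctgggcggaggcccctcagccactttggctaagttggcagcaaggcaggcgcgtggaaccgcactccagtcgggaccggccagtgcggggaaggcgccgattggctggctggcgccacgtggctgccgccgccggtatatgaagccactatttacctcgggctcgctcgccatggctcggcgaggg
Hoxd4: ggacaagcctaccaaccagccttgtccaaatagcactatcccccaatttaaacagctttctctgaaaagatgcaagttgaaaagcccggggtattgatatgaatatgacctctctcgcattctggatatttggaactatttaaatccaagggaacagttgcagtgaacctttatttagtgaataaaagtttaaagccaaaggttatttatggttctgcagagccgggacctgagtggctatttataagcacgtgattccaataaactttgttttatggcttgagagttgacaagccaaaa

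The Hoxd13 window was covered over all 300 bases and had a GC content of 74.3% with 37 CpG dinucleotides. The Evx2 window was covered over 115 bases, all before the start, and had 44.3% GC with 16 CpG. At the inner Hoxd11 start 41 bases were covered, all after the start, and the window had 62.0% GC with 25 CpG. The Hoxd1 window had 69.7% GC with 29 CpG, second to Hoxd13 among the 5 windows shown, and its nearest peak was 14069 bp away. The Hoxd4 window had 39.7% GC and 4 CpG. A peak overlapped 3 of the 11 windows, against 12% of 21045 windows of protein-coding genes in the series.

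Within 1 kb of a start site, 5 of the 11 Hoxd and Evx2 starts had a peak, against 23.5% of all protein-coding starts. They were the starts of Hoxd13 (inside a peak), Evx2 (136 bp from the nearest peak), Hoxd9 (190 bp), Hoxd10 (611 bp) and the inner start of Hoxd11 (9 bp). The other starts were farther away, in order Hoxd8 (1594 bp), the outer start of Hoxd11 (2774 bp), Hoxd12 (5718 bp), Hoxd3 (8972 bp), Hoxd4 (11785 bp) and Hoxd1 (14069 bp). The starts with a peak thus all belong to Evx2 and the genes from Hoxd13 to Hoxd9, with Hoxd12 the one gene of that stretch without. Their median GC content was 62.7% (44.3 to 74.3%) and their median CpG count 22, against 50.3% (39.7 to 69.7%) and 9.5 at the 6 starts without a peak. Over all protein-coding starts the medians were 64.3% and 25 CpG with a peak within 1 kb, and 54.0% and 8 CpG without. In GC content Evx2 and Hoxd1 go against this order, Evx2 being AT-rich with peaks and Hoxd1 GC-rich without. In CpG count Hoxd1 (29) does so as well, and Hoxd3, without a peak, had 20, as did Hoxd9 with one. Evx2 had 16 CpG, between the 2 Hoxd medians.

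**Figure D2:**
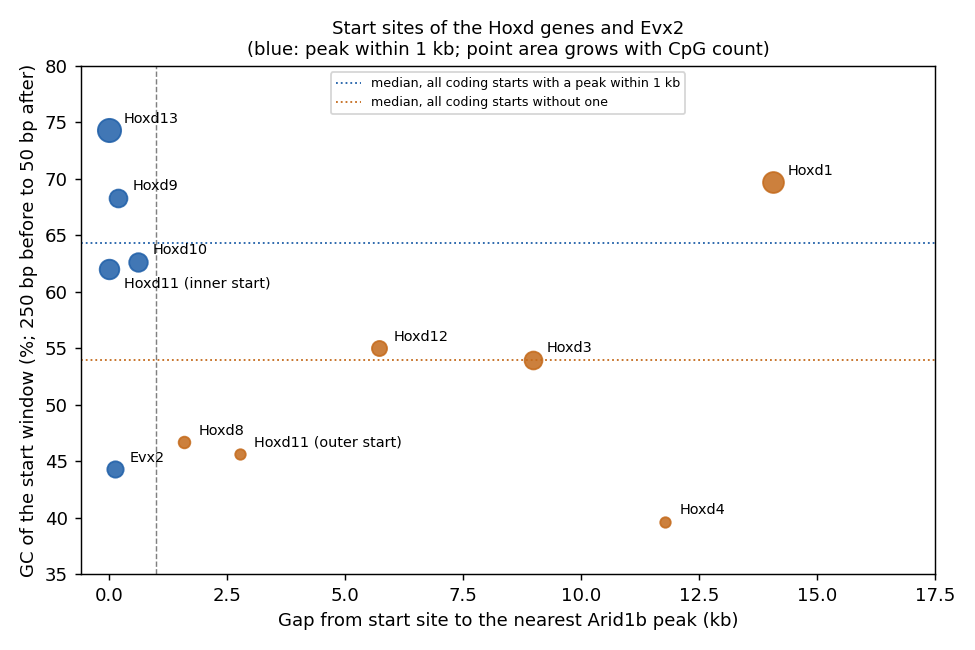
GC content of the 300-base window at each of the 11 start sites (percent) by the gap to the nearest Arid1b peak in kb; blue points have a peak within 1 kb, and the dotted lines are the medians of all protein-coding starts with and without one. Hoxd13, Hoxd9, Hoxd10, the inner Hoxd11 start and Evx2 lie left of the dashed line at 1 kb, with Evx2 at 44.3% GC, and Hoxd1 stands alone at 69.7% GC, 14069 bp from a peak.

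Short motifs were counted in the 11 windows on both strands. The E-box CACGTG was in 5 of them (Hoxd13, the inner Hoxd11 start, Hoxd10, Hoxd4 and Hoxd1), against 7.15% of all 32851 RefSeq promoter windows, and thus stood in windows with and without a peak. The TATAAA motif was in 3 (Evx2, Hoxd13 and Hoxd4), against 13.6%. TGATNNAT, the core of sites shared by Pbx and Hox proteins, was in 2 (Evx2 and the inner Hoxd11 start), against 8.85%. The AP-1 motif, TGACTCA or TGAGTCA, was in 1, at the outer Hoxd11 start, against 5.20%. GGGCGG, the GC box, was in 4 against 35.7%, with 7 matches in the Hoxd13 window alone, several of them overlapping in a GGGC repeat. CCAAT was in 7 against 37.4%. The motifs were chosen with the windows already seen, and a match describes the letters only.

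Single Hoxd peaks rested on few fragments. The fold is the authors' value for each peak, and the pileup behind it, the number of fragments at the summit, was recovered from the deposited fold and p-value. The 19 peaks had pileups of 30 to 60 fragments with a median of 37, and the median over all 8318 peaks was 38. Their fold had a median of 3.92 (3.12 to 6.30), against 3.72 over all peaks. The exact Poisson 95% interval of the fold, with the input level held fixed, included the median of all peaks for 17 of the 19, and lay above it for 2. Fragments are not necessarily independent molecules, so these intervals cover counting error only. The lowest pileup listed at the background input level of 8.68 was 24, a fold of 2.58, so a gene without a listed peak may carry weaker signal that was not detectable at this depth.

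The 2 peaks that stood above the median of the list were at Hoxd3 and Hoxd13, with a fold of 5 or more, a size that 10.2% of all peaks reached. The peak at chr2:74747606-74748911 had a fold of 6.30 (4.83 to 8.08) and the one at chr2:74667609-74668510 a fold of 6.01 (4.61 to 7.71). Both had a pileup of 60 fragments, and they differed only in the expected input level, 8.68 at Hoxd3 and 9.15 at Hoxd13. They ranked above 97.2% and 96.4% of the list or level with it. Of the 18 other peaks, 6 had an interval wholly below that of the Hoxd3 peak, and 3 one wholly below that of the Hoxd13 peak. The rest could not be told apart from them by these intervals.

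**Figure D3:**
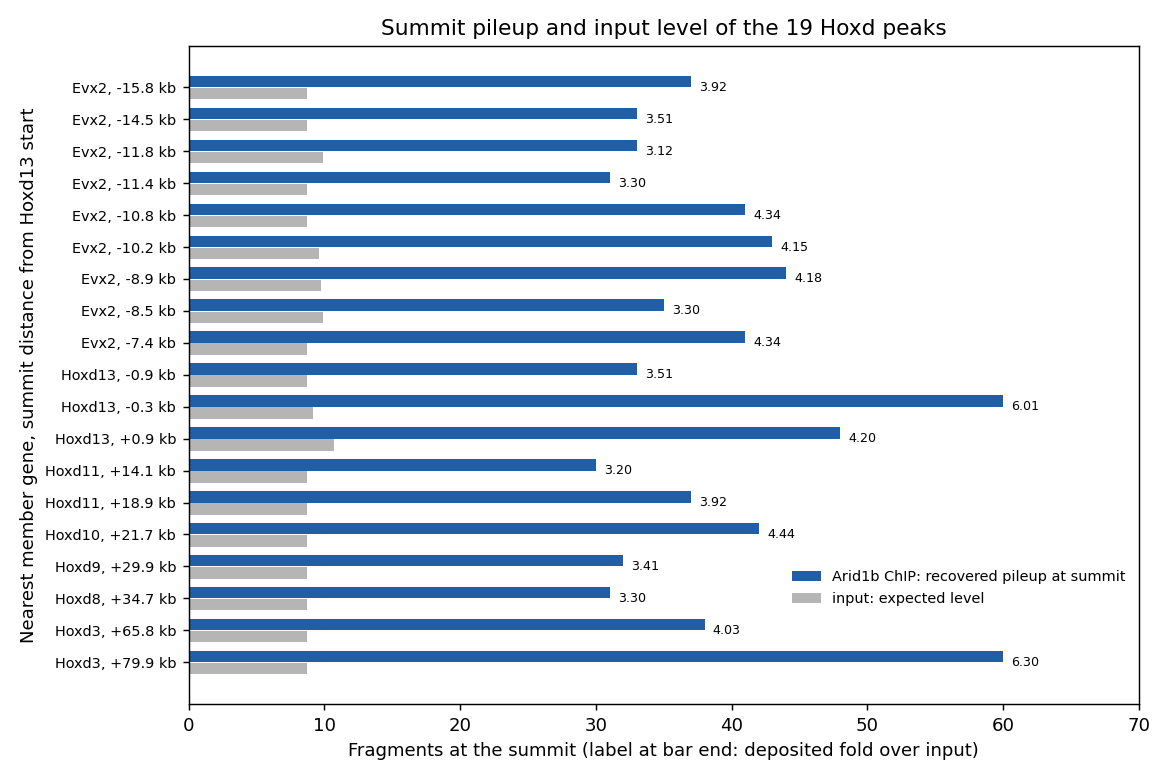
Recovered pileup at the summit in the Arid1b ChIP (blue) and expected level from input (grey) for each of the 19 peaks, in fragments, ordered along the chromosome; the number at each bar is the deposited fold. The middle peak of Hoxd13 and the last peak of Hoxd3 both reach 60 fragments, and the expected level lies between 8.68 and 10.7. At 13 of the peaks it equals the genome background of 8.68, so the grey bar shows no separate local input there.

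Evx2 (chr2:74652989-74661520, transcribed from high to low coordinates) held the longest run, 9 peaks in 8762 bp. From low to high coordinate their folds were 3.92, 3.51, 3.12, 3.30, 4.34, 4.15, 4.18, 3.30 and 4.34, with 31 to 44 fragments at the summit. No peak of the run stood apart, and all 9 intervals overlapped one another. The peaks were narrow, from 203 to 621 bp, and together covered 32.5% of the gene. The start that RefSeq lists for Evx2, at position 74659557, fell between a peak whose summit was 259 bp downstream of it (fold 4.18, 3.07 to 5.59) and one whose summit was 163 bp upstream (3.30, 2.33 to 4.55). Of the other 7, 1 had its summit 1244 bp upstream and the rest lay downstream, through the gene body to a last peak 281 bp beyond the annotated far end. Both peaks upstream of this start still lay inside the annotated gene, whose outer end is farther upstream. Input was above the genome background at 4 of the 9, up to 9.91, and whether this moved the number of peaks called was not tested.

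Hoxd13 (chr2:74668225-74671603), the gene of digit and genital patterning, had 3 peaks within 2078 bp around its start. The middle one, 902 bp wide, covered the start, and its summit lay 268 bp upstream. The upstream neighbour had its summit at 897 bp before the start with a fold of 3.51 (2.45 to 4.89). The downstream neighbour, at 852 bp after the start, had a fold of 4.20 (3.12 to 5.54) from 48 fragments, at the highest input level of the 19 peaks, 10.7. The 3 intervals overlapped, so the order of strength within the group is uncertain. No peak overlapped the long noncoding RNA gene Gm31790 between Evx2 and Hoxd13.

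Hoxd12 (chr2:74675013-74677705) lay in a peak-free stretch of 13036 bp between the last Hoxd13 peak and the inner start of Hoxd11, and its nearest peak was 4627 bp from the gene. Hoxd11 (chr2:74679558-74687016), which patterns the forearm together with its Hoxa paralogue, had its weakest peak at the inner start, with the summit 43 bp downstream and a fold of 3.20 (2.19 to 4.53) from 30 fragments, the lowest pileup of the cluster. Its other peak, 3.92 (2.79 to 5.37), lay across the far end of Hoxd11, which overlaps the annotated span of Hoxd10. The outer start of Hoxd11 had no peak within 1 kb.

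Hoxd10 (chr2:74684273-74695106), a gene of hindlimb motor neurons, had the widest peak of the cluster. It was 1544 bp wide, at chr2:74689737-74691280, and 98.2% of all peaks were as wide or narrower. Its fold was 4.44 (3.23 to 5.97), with the summit 1925 bp upstream of the RefSeq start at position 74691891 and the near edge 611 bp from it. Hoxd9 (chr2:74697763-74700208) had 1 peak of 277 bp just inside the gene, with the summit 343 bp after the start and a fold of 3.41 (2.36 to 4.77). These 2 intervals overlapped.

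From Hoxd8 to Hoxd1 the peaks were few and lay away from the coding starts. Hoxd8 (chr2:74704615-74707933) had none in the gene, and the 1 assigned to it, 1594 bp upstream with a fold of 3.30 (2.28 to 4.65), touched the low end of the long noncoding RNA gene Gm38462. A gap of 30741 bp without a peak followed, the longest in the cluster, which holds Hoxd8, the noncoding Hoxd3os1, the start of Hoxd3, all of Hoxd4 (chr2:74721978-74729160) and the microRNA gene Mir10b. Mir10b, whose product belongs to a microRNA family encoded within Hox clusters, was 7626 bp from the nearest peak. Hoxd1 (chr2:74762980-74765142) was the one member with no peak inside it or up to 10 kb away.

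Hoxd3 (chr2:74711993-74748271), which patterns the neck vertebrae, had 2 peaks, both far from its start. The weaker, 4.03 (2.88 to 5.49), lay inside the gene between the end of Hoxd4 and the end of Hoxd3. The strongest peak of the cluster, 1306 bp wide, lay across the far end of the gene, with its summit 36138 bp from the Hoxd3 start and 140 bp before the Hoxd3 end. The same summit was 291 bp from the low end of Haglr (chr2:74748422-74762896), a long noncoding RNA gene that fills the space between Hoxd3 and Hoxd1, and the peak overlapped both genes. The strand of Haglr was not used here, so which end of Haglr the peak marks was not tested.

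Counted by gene ends, 5 of the 10 members had a peak reaching within 1 kb of an outer boundary, against 22.2% of 21887 protein-coding genes. They were Evx2, Hoxd13, Hoxd11, Hoxd9 and Hoxd3. For Hoxd11 and Hoxd3 that boundary was the far end of the gene and not the start, while the Hoxd10 start with a peak within 1 kb lies inside the annotated outer ends and is missed by the count. A peak inside the gene or no more than 10 kb from it was present for 9 of 10, against 31.7%. Neighbouring members share peaks in this last count, Hoxd12 for example having 5 within 10 kb and none assigned to it. Of the 19 summits, 15 lay inside a member gene (76.6% of all summits lay in a protein-coding gene) and 7 within 1 kb of a member start (57.5% of summits on the chromosomes with RefSeq windows lay as near to one). These peaks were chosen for lying in or near the member genes, so the counts depend on the rule and nothing is read from them.

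The cluster was dense in peaks for its length. The interval from 10 kb below Evx2 to 10 kb above Hoxd1 spans 132.2 kb and held 1.44 peaks per 10 kb, against 0.0308 over the annotated genome. At least 10 summits fell in 0.137% of 20442 adjacent windows of that length. Peaks covered 7.12% of the interval, against 0.129% of the annotated genome. The interval was drawn around genes, while the annotated genome includes stretches without any, so these densities are not like for like. Density was also uneven, with 4.19 peaks per 10 kb from the low end to the end of Hoxd13 and 0.676 beyond. The median gap between neighbouring Hoxd peaks was 1546.5 bp, and 8 of the 18 gaps were shorter than 1 kb. The peaks themselves were of ordinary size, with a median width of 378 bp against 307 bp over all peaks, and 2 of the 19, at Hoxd10 and Hoxd3, were at least 1 kb wide, against 4.48% of the list. Whether neighbouring intervals belong to one broader region was not tested. With intervals closer than 500 bp joined, the 19 became 13.

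Outside the cluster the peaks stopped. The Hoxd genes are flanked by long stretches poor in genes that hold limb enhancers, with Lnpk and Atf2 on the Evx2 side and Mtx2 and Hnrnpa3 on the Hoxd1 side. On the Evx2 side the next peak was at the high-coordinate end of Atf2, 759.6 kb away, and Lnpk and Atp5g3 in between had none, counting up to 10 kb from each gene. On the Hoxd1 side the next was a peak with a fold of 3.51 (2.45 to 4.89) in Mtx2, a gene for a mitochondrial import protein, 77.2 kb from the last Hoxd peak and 61010 bp from Hoxd1. Beyond it no peak was listed for 832.3 kb, up to Hnrnpa3. Gaps of the Evx2-side length or longer made up 9.59% of all gaps between neighbouring peaks, so the gaps taken singly are not rare in this list. No Hoxd peak was near the limit of the 10 kb rule, the farthest being the 1594 bp of the peak at Hoxd8.

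**Figure D4:**
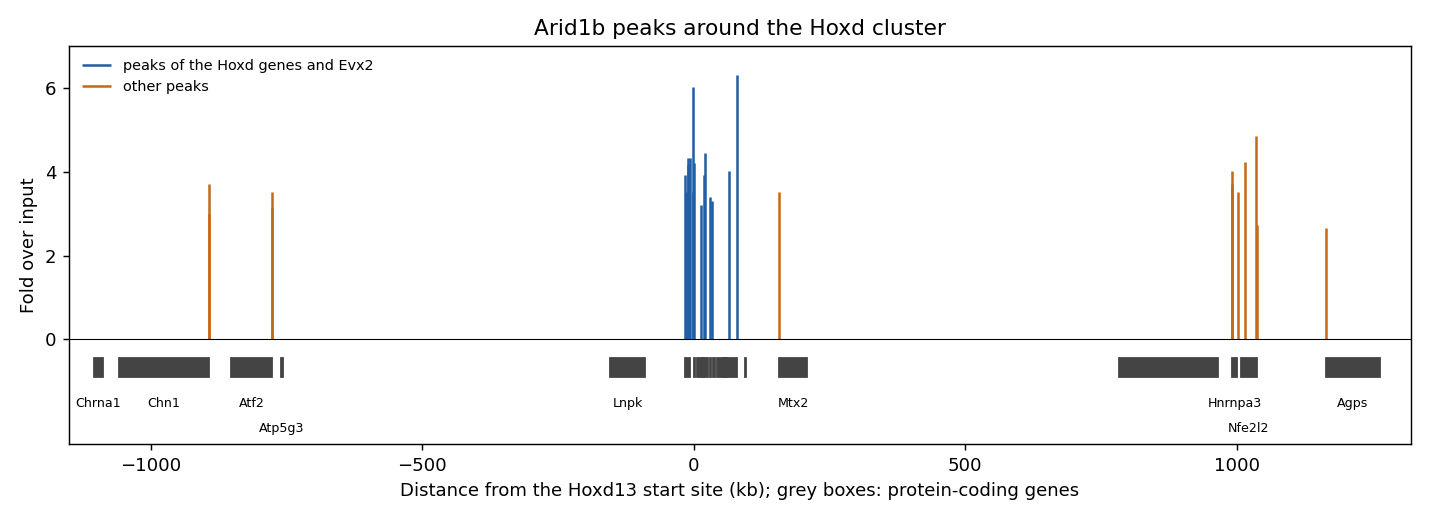
Fold of each Arid1b peak (linear ratio over input) by distance from the Hoxd13 start in kb, with protein-coding genes as boxes below. The 19 Hoxd peaks (blue) form one block around 0, the peak at Mtx2 stands alone to its right, and no other peak lies between Atf2 and Hnrnpa3.

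Set beside the other Hox clusters by the same rule, the Hoxd genes with Evx2 held a middle place. They had 19 peaks, or 1.44 per 10 kb, and the counts elsewhere were 43 (2.35 per 10 kb) for Hoxa with Evx1, 14 (0.722) for Hoxb and 1 (0.0737) for Hoxc. The Hoxb and Hoxc sets hold no Evx gene, and 9 of the 19 peaks were assigned to Evx2. With these 9 left out, the Hoxd count would be below the 14 of Hoxb. The Hoxb interval is longer, however, 193.9 kb against 132.2 kb for Hoxd with Evx2, so these counts are not like for like. Some of the 9 also lie within 10 kb of Hoxd13 and would stay by the rule. The density of the Hoxd genes without Evx2 was not computed. The share of bases covered was 7.12% in Hoxd, 14.2% in Hoxa, 3.70% in Hoxb and 0.276% in Hoxc. The clusters differed little in the strength of single peaks, with a median fold of 3.92 in Hoxd, 3.80 in Hoxa and 4.03 in Hoxb, and 3.51 for the single Hoxc peak, at Hoxc12. The strongest peak of Hoxd, 6.30 (4.83 to 8.08), had an interval that overlapped those of the strongest peaks of Hoxa, 8.38 (6.70 to 10.3) near Evx1, and of Hoxb, 5.87 (4.53 to 7.48) near Hoxb2. With 1 library, differences between clusters were not tested.

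**Figure D5:**
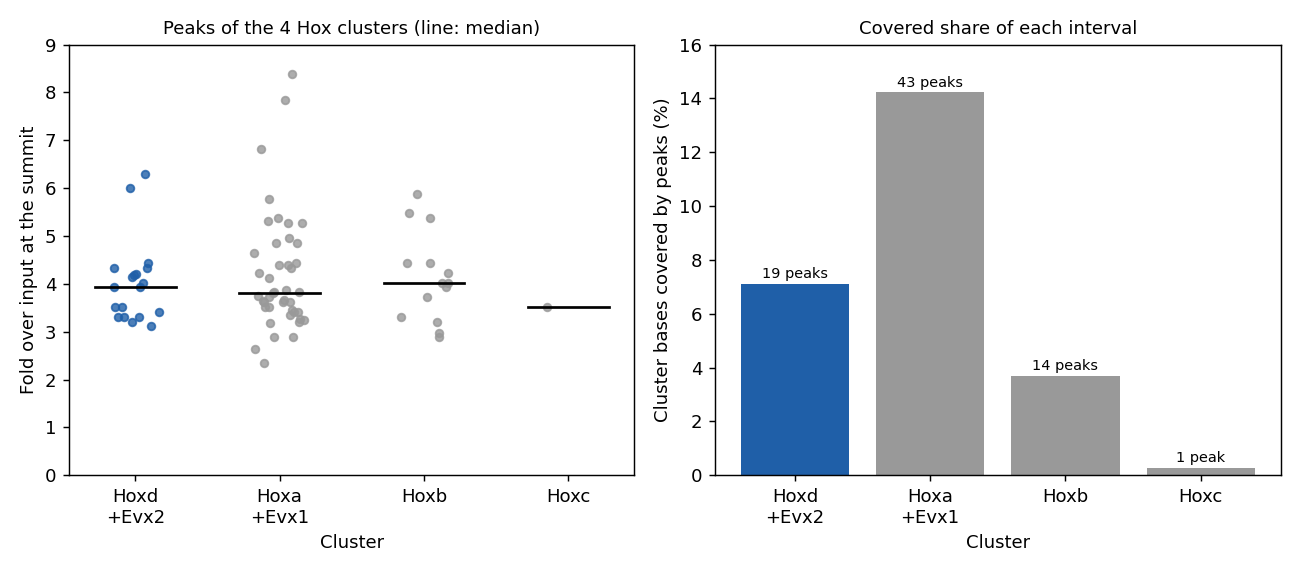
Left, fold over input of every peak assigned to each Hox cluster (points, spread sideways for sight only) with the median as a line. Right, percent of the bases of each cluster interval covered by peaks, with the number of peaks above each bar; Hoxd at 7.12% lies below Hoxa at 14.2% and above Hoxb at 3.70% and Hoxc at 0.276%.

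Evx2 and its paralogue Evx1 both carried peaks within 1 kb of a gene end, and the strongest there was 4.34 (3.14 to 5.85) for Evx2 and 7.85 (6.20 to 9.81) for Evx1, an interval wholly above that of Evx2. Among the paralogues of group 13, Hoxd13 had 3 peaks within 1 kb of its ends, while Hoxa13, Hoxb13 and Hoxc13 had none there, although 7, 3 and 1 peaks lay within 10 kb of them. Over all protein-coding genes, 22.2% had a peak within 1 kb of an end. The strongest peak assigned to Hoxa13 had a fold of 6.82 (5.28 to 8.66), and the strongest at Hoxd13 6.01 (4.61 to 7.71). These intervals overlapped, so peaks of this strength were not particular to Hoxd13. Among the paralogues of group 4, Hoxa4 (5.37) and Hoxb4 (4.23) had a boundary peak, and Hoxd4 and Hoxc4 did not. By the nearest-gene rule, however, the peak of 5.37 was assigned to Hoxa3 and that of 4.23 to Hoxb3. Hoxa4 then had no peak assigned to it, like Hoxd4, and Hoxb4 had one of 2.98 (2.11 to 4.09). Neither Hoxd1 nor its paralogue Hoxb1 had one.

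Genes for partners and regulators of Hox proteins carried peaks as well. Of the 9 genes for TALE homeodomain proteins, which bind DNA together with Hox proteins, 6 had a peak within 1 kb of an end, against 22.2% of all protein-coding genes, with Pknox1 (5.47), Meis2 (5.06) and Meis1 (4.65) the strongest. Meis3, Pbx4 and Pknox2 had none. Of 19 Polycomb and trithorax genes, whose products silence or maintain Hox transcription, 10 had one, against the same 22.2%, with Kmt2a (5.41), Eed (5.13), Ezh2 (4.58) and Pcgf2 (4.44) the strongest. None of the 5 Cbx genes of the list, which encode Polycomb chromodomain proteins, was among the 10.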

How the data were processed

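Arid1b ChIP and input chromatin were sequenced from 1 library each. Per the submitters' processing notes the tools were MACS2 2.1.1, Picard, Bowtie2 2.2.5 and FastQC 0.11.8 with the build mm10. Parameters, read totals and filters were not stated. The deposited list holds 4 values per peak that were used: the summit offset, the linear ratio (fold) of ChIP over input there, and its p-value and q-value, both as -log10. A deposited score was not used. All are the authors' values. From fold and p, the summit pileup and expected input level were recovered on the assumption that the fold is pileup plus 1 over expected level plus 1, with a Poisson p. The fold formula was met by construction, and the p formula within 0.001 in -log10 p for 100% of peaks. The method was tested on simulated data made with the same formulas, which checks the calculation and not the assumption.

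Genes and start windows came from RefSeq tables of GRCm38.p6, and all 10 members matched. A peak inside 2 genes went to the one with the nearer outer end. Coordinates are 1-based. Alternatives covered stricter q-values and fold, other windows, summits in place of intervals, joined intervals and peaks at background input. All 10 genes and all 19 peaks are named; other genes follow gene lists, of which some members are not reported here. The members and lists were chosen with earlier results of these data known. The paralogues of groups 13, 4 and 1 were chosen after their values were seen. No statistical test was made, as 1 library per group allows none. Python 3.11.15, numpy 2.4.6, pandas 2.3.3, scipy 1.17.1 and matplotlib 3.10.9 were used.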

Additional observations from a re-analysis of the deposited data

How the results depend on the processing

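With -log10 q of at least 5, with summits in place of intervals, with only peaks at background input (13 peaks) and with intervals joined within 500 bp (13 regions), the numbers of Hoxd peaks and of members with peaks that were recomputed stayed within 1.5 times the reported ones. The 6 peaks with input above background were all among the 12 of Evx2 and Hoxd13, 4 of them at Evx2. Keeping only peaks at background input thus took peaks from the densest stretches and from no other gene. With -log10 q of at least 10, 8 peaks remained and 3 members had one within 1 kb of a boundary (10.5% of all genes). With a fold of at least 5, 2 peaks remained, with a median fold of 6.16, 2 members had a boundary peak (3.29% of all genes) and 4 had one within 10 kb (5.21%). With a boundary window of 5 kb, 9 members had a peak (27.0% of all genes). The covered share was 7.71% with 5 kb and 6.19% with 20 kb around the genes, over the same 19 peaks, because the interval length changed. No paired analysis was possible because each group has 1 library, and no library could be left out. Depth limits the list to summits of about 24 fragments or more at background input, and 17 of the 19 Hoxd peaks had fold intervals that took in the list median.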

Other observations

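Genes that mark limb and trunk mesenchyme, where Hoxd genes are active, were looked at beside the Hoxd peaks. Of 6 such genes, a peak reached within 1 kb of a gene end at 2, Hand2 (3.72) and Pitx1 (3.22), both of which are also active in mandibular mesenchyme. The share over all protein-coding genes was 22.2%, so 2 of 6 says little about these genes. Tbx5, Tbx4, Hoxc6 and Hoxc8 had none, counting up to 10 kb from each gene. RNA was not measured in these libraries, so whether any Hoxd gene was transcribed in these cells was not tested.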
